A study of Sus scrofa with 6 samples.

Results

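LDHA and LDHB encode the muscle-type and heart-type subunits of lactate dehydrogenase, the cytosolic enzyme that interconverts pyruvate and lactate. The members were the probe sets whose platform gene symbol is exactly LDHA or LDHB. There was 1 for LDHA (gene identifier 407245) and 1 for LDHB (gene identifier 100621540), so the members were 2 of 6765 named genes and 2 of the 23999 probe sets that are not array controls. Both lay above the filter on dim probe sets, which kept 14399. Coordinates are left out because the build is not given, and no sequence of either gene was used here.

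The study compared longissimus dorsi, a back muscle that extends the spine, between 3 Large White boars, which served as controls, and 3 Northeastern Indigenous boars. All 6 were 150 days old and, per the labels, had the same nutrition and surroundings, with no treatment that differed between them. One Affymetrix Porcine Genome Array was read per animal, from total RNA of snap-frozen muscle. The labels call the arrays of a breed biological replicates.

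The active enzyme is a tetramer in which the subunits can mix. Tetramers rich in the muscle-type subunit are typical of fast, glycolytic muscle, where pyruvate is reduced to lactate and NAD+ is regenerated for glycolysis. Tetramers rich in the heart-type subunit are typical of heart, slow fibres and other oxidative tissues, where lactate is taken up and oxidised. Back muscle of the pig consists mostly of fast fibres.

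The arrays did not all look like muscle of the same composition. Across probe sets, which are not independent replicates, the correlation with the 3 Northeastern Indigenous arrays was 0.71 to 0.76 for Large White replicate 1, 0.84 to 0.89 for replicate 3 and 0.92 to 0.95 for replicate 2. Muscle structure genes were dim and fat-cell genes bright on Large White replicate 1. Large White replicate 3 had bright fat-cell genes as well. In whole tissue, fewer cells of a type and less RNA per cell cannot be told apart. The values of LDHA, LDHB and their ratio are therefore also given with Large White replicate 1 left out, alone or together with replicate 3.

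LDHA was among the brightest probe sets of the muscle. On the deposited linear scale it read 13354, 46885 and 25647 on Large White replicates 1, 2 and 3. On Northeastern Indigenous replicates 1, 2 and 3 it read 41228, 42196 and 36884. The 3 Northeastern Indigenous values lay close together and inside the Large White range, which ran from the dimmest to the brightest value of the series. Counted from the brightest probe set of its array, LDHA stood at position 154 on Large White replicate 1 and at positions 19 to 29 on the other 5 arrays.

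After quantile normalization, which gives every array the same distribution of log2 intensities, LDHA read 14.27, 15.07 and 15.06 on Large White replicates 1, 2 and 3. It read 15.11, 15.14 and 15.04 on Northeastern Indigenous replicates 1, 2 and 3. Large White replicate 1 alone was low, and the other 5 arrays lay between 15.04 and 15.14, so the breeds overlapped. The mean was 15.10 ± 0.05 in Northeastern Indigenous and 14.80 ± 0.46 in Large White boars (SD, n = 3 per breed). Northeastern Indigenous minus Large White, this was a difference of 0.29 ± 0.22 log2 units (SE; 95% confidence interval -0.23 to 0.82), with an adjusted p of 0.443 in limma.

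The size of the LDHA difference depended on scaling. It was 0.67 ± 0.45 (SE) on log2 values as deposited (limma adjusted p = 0.409) and 0.81 ± 0.51 with each array centred on its median (limma adjusted p = 0.367). The median gene differed by 0.09, 0.02 and 0.16 under the 3 scalings, and relative to it LDHA differed by 0.21, 0.65 and 0.65. As deposited, LDHA on Large White replicate 3 lay 0.87 log2 units below Large White replicate 2, against 0.01 after quantile normalization. With Large White replicate 1 left out the quantile-normalized difference was 0.03, and with replicate 3 of that breed left out as well it was 0.02.

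LDHB ran the other way among the Large White arrays. On the deposited linear scale it read 20819, 8979 and 15775 on Large White replicates 1, 2 and 3. On Northeastern Indigenous replicates 1, 2 and 3 it read 8099.7, 14127 and 12739. Large White replicate 1 was brightest and Northeastern Indigenous replicate 1 dimmest, with Large White replicate 2 next to the dimmest. Counted from the brightest probe set, LDHB stood at position 45 on Large White replicate 1, 149 on Large White replicate 3, and 296 to 531 on the other 4 arrays.

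Quantile normalized, LDHB read 14.88, 13.00 and 14.29 on Large White replicates 1, 2 and 3. It read 12.87, 13.62 and 13.49 on Northeastern Indigenous replicates 1, 2 and 3. Large White replicates 1 and 3 lay above every Northeastern Indigenous array, while Large White replicate 2 lay below 2 of them, so the breeds overlapped. The mean was 13.33 ± 0.40 in Northeastern Indigenous and 14.06 ± 0.96 in Large White boars (SD, n = 3 per breed). The difference was -0.73 ± 0.47 log2 units (SE; 95% confidence interval -1.84 to 0.38), with an adjusted p of 0.383 in limma.

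The LDHB difference was -0.34 as deposited and -0.20 with arrays centred on their medians. Arrays were left out on quantile-normalized values only, where the LDHB difference was -0.32 without Large White replicate 1. Without Large White replicates 1 and 3 it turned to 0.33, with 1 Large White array assumed to vary like the others. Without Large White replicate 2 it was -1.26 ± 0.28 (SE), past the threshold in limma (adjusted p = 0.0203). In that fit 15.3% of all probe sets were called lower in Northeastern Indigenous boars and 30.7% in either direction.

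**Figure D1:**
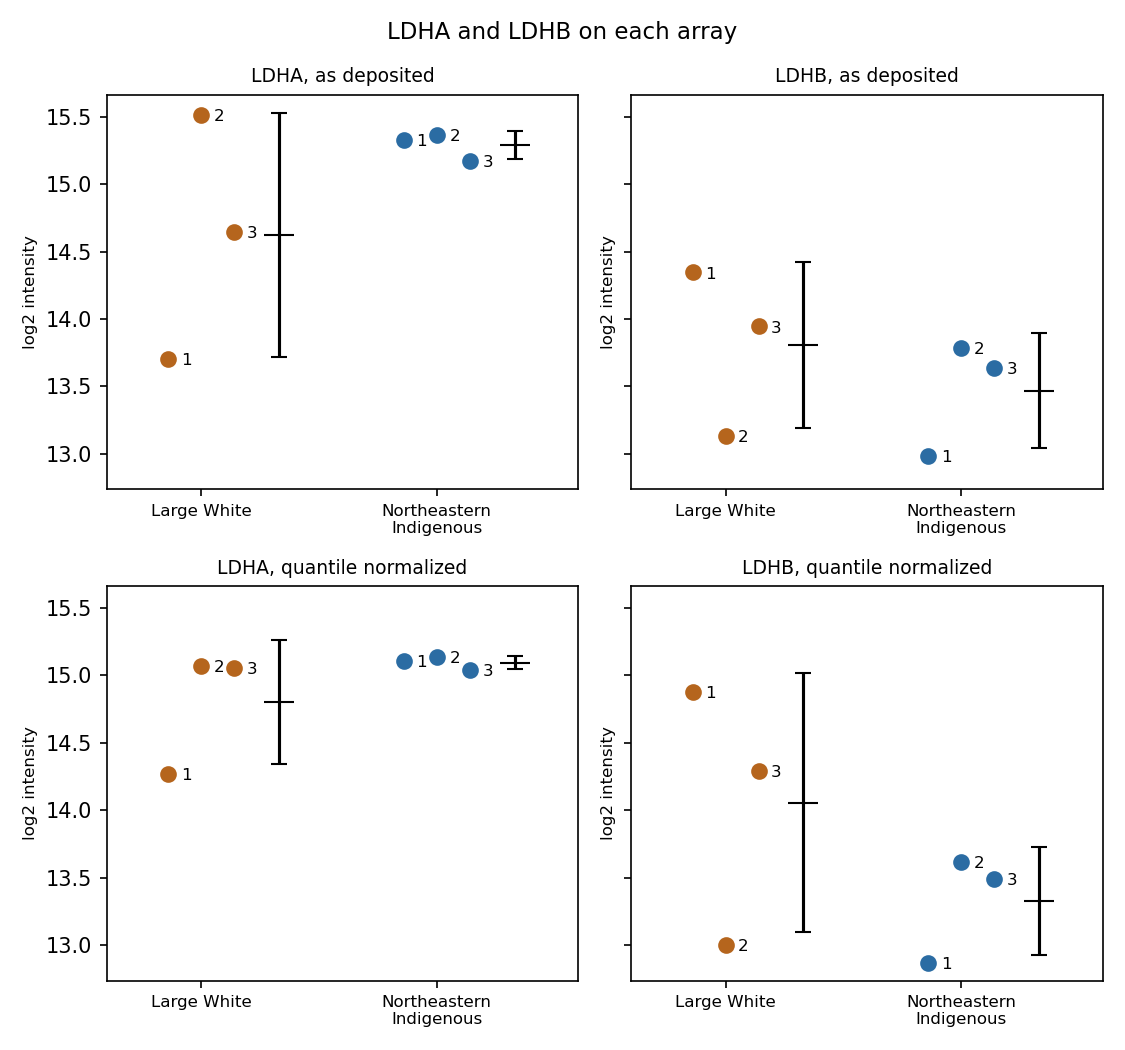
Log2 intensity of LDHA (left) and LDHB (right) on each array, as deposited (top) and quantile normalized (bottom). Points are arrays labelled by replicate number, brown for Large White and blue for Northeastern Indigenous, and bars are the mean ± SD of 3 arrays. Large White replicate 1 has the lowest LDHA and the highest LDHB on both scales, and the breeds overlap in all 4 panels.

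Neither member was called, and no other probe set was. Limma called 0 of 14399 probe sets between the breeds at an adjusted p under 0.05, which is 0% of them, and 2706 at an unadjusted p under 0.05, which is 18.8% (8.82% higher and 9.97% lower in Northeastern Indigenous boars). LDHA had an unadjusted p of 0.229 in limma and LDHB one of 0.164. The breeds did not overlap in 28.3% of the 5438 named genes, and LDHA and LDHB were not among them.

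The members differed in how steady they were within a breed. The SD of LDHA over the Northeastern Indigenous arrays was 0.05 log2 units, smaller than that of all but 3.54% of the probe sets kept, whose median SD was 0.27. Quantile normalization holds the brightest probe sets in a narrow range, and as deposited the SD of LDHA in that breed was 0.10. The SD of LDHB there was 0.40, larger than that of 70.2% of probe sets. In Large White boars the SD was 0.46 for LDHA and 0.96 for LDHB, against a median of 0.49. As deposited the order in that breed was the reverse, with 0.91 for LDHA and 0.62 for LDHB. Which member was steadier in Large White boars thus depended on scaling.

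The LDHB minus LDHA log2 ratio sets both subunits of an array against each other and so cancels any factor shared by the whole array. Its level mixes probe sets of unknown response, so a value above or below 0 does not show which transcript was more abundant, and only differences between arrays are read. As deposited it was 0.64, -2.38 and -0.70 on Large White replicates 1, 2 and 3. It was -2.35, -1.58 and -1.53 on Northeastern Indigenous replicates 1, 2 and 3. Large White replicate 1 had the highest ratio and Large White replicate 3 the next, while Large White replicate 2 had the lowest of the series.

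Within Large White boars the deposited ratio spanned 3.03 log2 units, or 8.14-fold, and within Northeastern Indigenous boars 0.81 log2 units, or 1.76-fold. All 3 Northeastern Indigenous ratios lay inside the Large White range. Quantile normalized, the ratio was 0.61, -2.07 and -0.76 on Large White replicates 1, 2 and 3 and -2.24, -1.52 and -1.55 on Northeastern Indigenous replicates 1, 2 and 3. The order of the arrays was the same, except at the bottom, where Northeastern Indigenous replicate 1 was then lowest, and among Northeastern Indigenous replicates 2 and 3, which traded places.

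The mean quantile-normalized ratio was -1.77 ± 0.40 in Northeastern Indigenous and -0.74 ± 1.34 in Large White boars (SD, n = 3 per breed). The difference of -1.03 log2 units was smaller than the SD among Large White boars (exact permutation p = 0.3, two-sided; 0.1 is the smallest p that 3 against 3 allows). It was -1.01 as deposited and with arrays centred on their medians (exact permutation p = 0.4, two-sided). Median centring shifts both members of an array alike, so it leaves the deposited ratio unchanged by construction. Between quantile-normalized and deposited values the breed difference in the ratio moved little, though that of each member moved. The Large White range of the ratio was 2.68 log2 units quantile normalized and 3.03 as deposited. Quantile normalized, leaving out Large White replicate 1 gave -0.35 and leaving out replicate 2 of that breed gave -1.69. The sign turned, to 0.30, when replicates 1 and 3 were both left out.

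**Figure D2:**
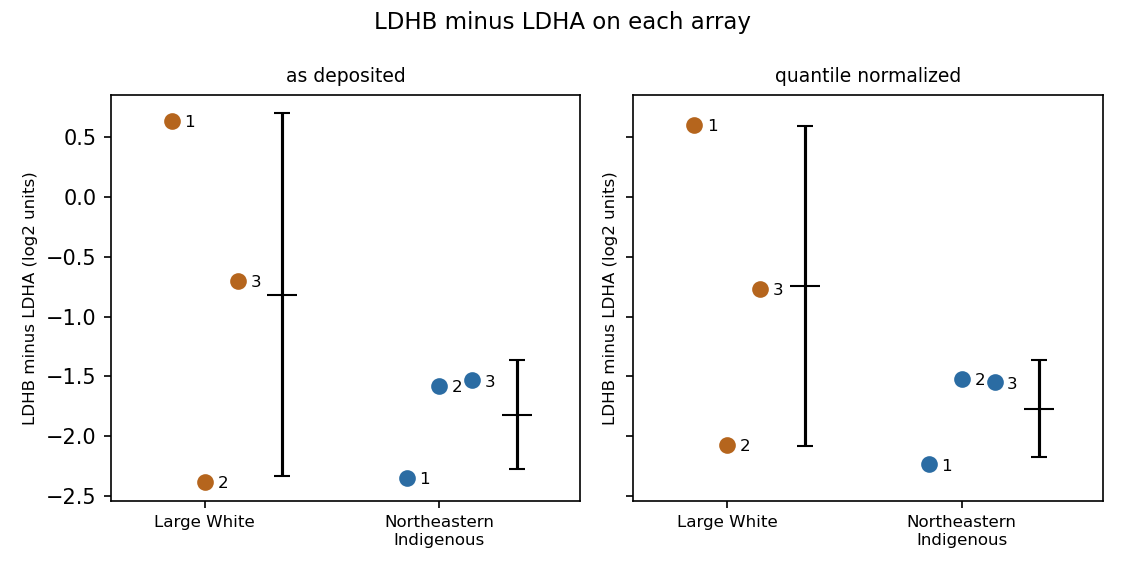
LDHB minus LDHA in log2 units on each array, as deposited (left) and quantile normalized (right). Points are arrays labelled by replicate number and bars are the mean ± SD of 3 arrays. The Large White arrays span 3.03 log2 units as deposited and the Northeastern Indigenous arrays 0.81, inside the Large White range.

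The median of the fat-cell markers moved with the ratio among the Large White arrays. Relative to the Northeastern Indigenous mean, the quantile-normalized ratio stood at 2.37, -0.30 and 1.00 on Large White replicates 1, 2 and 3. The adipocyte list, of which 8 of 10 genes had a probe set and 6 passed the filter, stood at a median of 4.89, -0.07 and 3.60 on those arrays. Its summed deposited intensity ran from 4586 to 34198 in Large White and from 4261 to 6622 in Northeastern Indigenous boars, with 0 values at 0. ADIPOQ, the gene of the fat-cell hormone adiponectin, read 13.64, 7.22 and 12.50 on Large White replicates 1, 2 and 3, and FABP4, which binds fatty acids in fat cells, 14.66, 11.88 and 14.42. Both were bright on the same Large White arrays as LDHB, and dim on the one where LDHB was dim. Of the 6 kept genes 5 had a lower mean in Northeastern Indigenous boars, 0 of them past the threshold. The other, AGPAT2, an enzyme of triglyceride synthesis, ran the opposite way, at 6.30, 8.26 and 7.39 on Large White replicates 1, 2 and 3.

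Within Northeastern Indigenous boars LDHB and the adipocyte list spread less. Relative to their mean, LDHB stood at -0.46, 0.29 and 0.17 on Northeastern Indigenous replicates 1, 2 and 3, and the adipocyte list at -0.24, 0.52 and -0.19. The red blood cell list, 4 of 7 genes, stood at -1.20, 1.81 and -0.56 on them, and at -0.05, -0.03 and 1.07 on Large White replicates 1, 2 and 3. Its summed deposited intensity ran from 1995 to 13538 in Northeastern Indigenous and from 3946 to 9496 in Large White boars, with 0 values at 0. HBB, beta globin, read 9.46 to 10.06 on the 6 arrays. The other kept genes of that list spread more, HBM from 8.42 to 11.44, ALAS2 from 9.63 to 12.72 and AHSP from 8.2 to 11.6. Mature red blood cells contain lactate dehydrogenase rich in the heart-type subunit.

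Among the Large White arrays, the medians of the connective tissue and white blood cell lists were highest where LDHB was bright. The leukocyte list, 10 of 14 genes, stood at 2.31, 0.84 and 2.27 on Large White replicates 1, 2 and 3, with summed intensities of 7999.96 to 22199 in Large White and 2198 to 4419 in Northeastern Indigenous boars. The fibroblast list, 8 of 9 genes, stood at 1.93, 0.55 and 1.67, with sums of 45006 to 82716 and 25642 to 38260.3. COL3A1 of that list ran the opposite way to LDHB, at 8.55, 10.35 and 9.78 on Large White replicates 1, 2 and 3. PTPRC, the pan-leukocyte surface gene CD45, read 6.96, 5.54 and 6.25 on Large White replicates 1, 2 and 3. On Northeastern Indigenous replicates 1, 2 and 3 it read 4.66, 6.90 and 5.29, so the breeds overlapped in PTPRC. In 6 of the 10 leukocyte genes they did not, all lower in Northeastern Indigenous boars, against 12.3% of named genes. Of the 10 genes 0 passed the threshold. The endothelium list, 6 of 6 genes with 5 kept, stood at -0.41, -0.02 and -0.18, and the smooth muscle list, 4 of 5 genes with 3 kept, at -0.96, -0.58 and -0.31. Their sums ran from 1965 to 2616 and 3629 to 5358 in Large White and from 1735 to 2470.2 and 6548 to 7197 in Northeastern Indigenous boars. None of these 4 lists had a value at 0. The part of any of these markers in the LDHA and LDHB values was not tested.

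Muscle structure genes and LDHA were lowest on the same array. For the sarcomere list 11 of 15 genes were measured, and it stood at -4.40, -0.14 and -0.46 on Large White replicates 1, 2 and 3, while LDHA stood at -0.83, -0.02 and -0.04. The list's summed intensity ran from 28340.4 to 284684 in Large White and from 257072 to 292226 in Northeastern Indigenous boars, with 0 values at 0. DES, the muscle intermediate filament, read 7.26, 13.23 and 11.59, and ACTN2, an anchor of actin at the Z-disc, 8.30, 13.51 and 12.60 on Large White replicates 1, 2 and 3. As deposited, LDHA stood at -1.58 on Large White replicate 1 and the sarcomere list at -4.44. LDHA was thus less dim there than the sarcomere genes on both scales.

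Slow and fast fibre genes were both dim on the array with the highest LDHB. The slow-twitch list, 9 of 11 genes with 8 kept, stood at -4.42, -0.16 and -0.34 on Large White replicates 1, 2 and 3, and the fast-twitch list, 7 of 12 genes, at -1.89, 0.02 and -0.17. MYH7, the slow myosin heavy chain, read 9.57, 14.50 and 14.01 on those arrays, and MYH2, a fast oxidative myosin heavy chain, 13.23, 15.14 and 15.19. TNNT1, the slow troponin T, read 9.14, 14.22 and 14.17, and TNNT3, the fast troponin T, 11.62, 15.12 and 14.98. The slow minus fast difference of list medians was -2.53, -0.18 and -0.17 on these arrays, so it was lowest where the LDHB minus LDHA ratio was highest. On Northeastern Indigenous replicates 1, 2 and 3 it was -0.29, 0.09 and 0.21, with the ratio at -0.47, 0.25 and 0.22. TPM3, a tropomyosin of slow fibres that other cells also express, was the 1 kept slow-list gene that was dimmer in Northeastern Indigenous boars, at -1.45. TPM3 was singled out after its values were seen, and its other probe sets differed by -1.78 and 1.88. ATP2A2, also on the slow list, differed by 1.26, but its other probe sets by -0.83, -0.36 and -1.41.

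**Figure D3:**
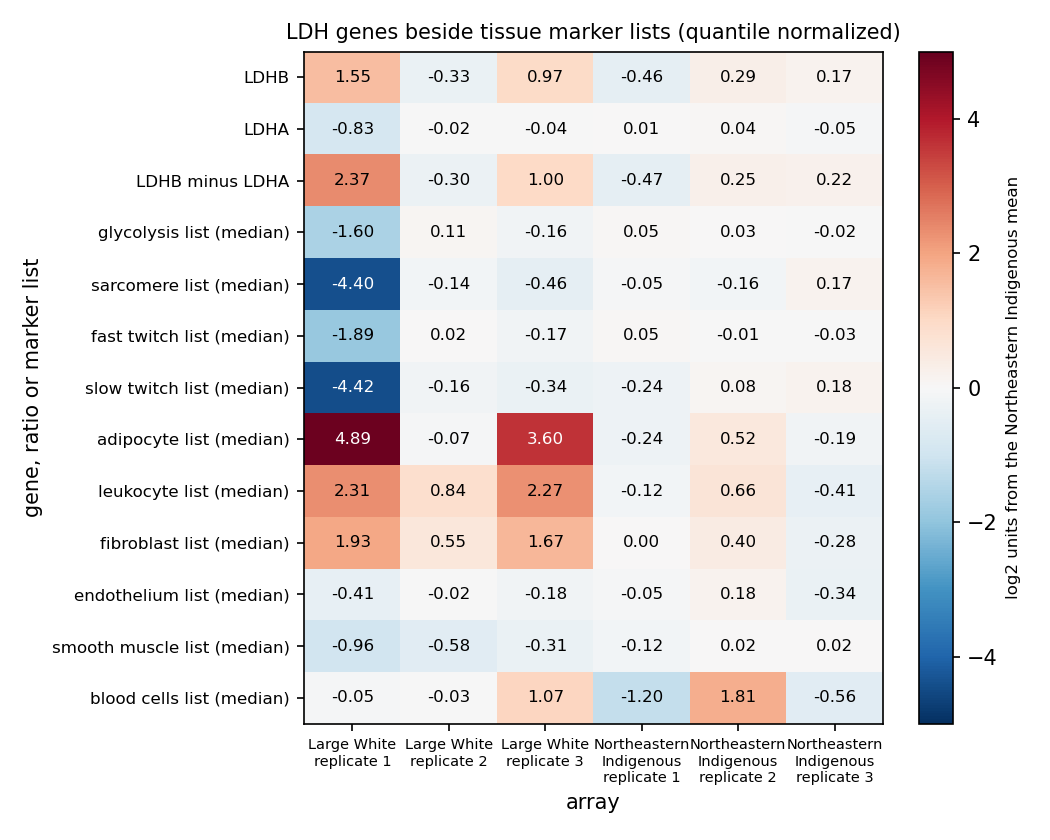
LDHA, LDHB, their ratio and the median of each marker list on the 6 arrays, in quantile-normalized log2 units from the Northeastern Indigenous mean (red above, blue below). Large White replicate 1 has LDHB at 1.55, LDHA at -0.83, the sarcomere list at -4.40 and the adipocyte list at 4.89, and Large White replicate 2 resembles the Northeastern Indigenous arrays in most rows.

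The control probe sets for RNA integrity also varied across arrays. The log2 ratio of the 3′ to the 5′ actin control was 2.55, 3.28 and 2.47 on Large White replicates 1, 2 and 3 and 3.44, 2.74 and 3.36 on Northeastern Indigenous replicates 1, 2 and 3. It was lowest on the 3 arrays with the highest LDHB. That of the EF1A control was -0.04, 0.52 and 0.08 on Large White replicates 1, 2 and 3 and 0.43, 0.31 and 0.47 on Northeastern Indigenous replicates 1, 2 and 3, lowest on the same 3 arrays. That of the GAPDH control lay between 0.32 and 0.48 on all 6 arrays. The part of RNA integrity in the LDH values was not tested.

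Lactate leaves and enters cells through monocarboxylate carriers. Of 7 listed carriers and partners, 5 were measured, 0 passed the threshold, and 2 did not overlap between breeds, both higher in Northeastern Indigenous boars, where 15.9% of all named genes did so. SLC16A3, the carrier that exports lactate from glycolytic muscle, read 5.16, 9.73 and 7.49 on Large White replicates 1, 2 and 3 and 9.94, 9.81 and 10.12 on Northeastern Indigenous replicates 1, 2 and 3. It was lowest on the array where LDHA was lowest, and differed by 2.50 ± 1.02 log2 units (SE; limma adjusted p = 0.259), or 1.35 without Large White replicate 1. BSG, the chaperone that carries it to the membrane, differed by 0.56 ± 0.26, and by 0.66 without that array. The mitochondrial pyruvate carrier genes MPC1 and MPC2 differed by -0.28 and -0.10, and EMB, another carrier chaperone, by -0.20. The median of the list was -0.10, against 0.09 over all named genes, and 0.18 without Large White replicate 1.

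Pyruvate that is not reduced to lactate enters the mitochondrion and the pyruvate dehydrogenase complex. Of 18 listed genes around pyruvate, 10 passed the filter, 0 passed the threshold, and the median difference was 0.65. The median was 0.34 without Northeastern Indigenous replicate 3 and 0.30 with Large White replicates 1 and 3 both left out. Genes of 3 subunits, PDHA1 (0.85 ± 0.24), DLAT (1.16 ± 0.29) and DLD (0.72 ± 0.19, SE), were brighter on every Northeastern Indigenous than on any Large White array, with a limma adjusted p of 0.224 for each. These were 3 of the 10 genes, against 15.9% of named genes that did not overlap and were higher in that breed. PDHB, the beta chain of the first enzyme, differed by -0.13. The 4 differences were 0.90, 1.11, 0.62 and 0.18 without Large White replicate 1.

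The other genes of pyruvate use were mixed. PC, pyruvate carboxylase, which fat cells use in making fatty acids, differed by -2.06 log2 units, with 12.48, 9.25 and 11.11 on Large White replicates 1, 2 and 3. The breeds did not overlap in PC, as in 12.3% of named genes that were lower in Northeastern Indigenous boars without overlap. Against Large White replicate 2 alone PC differed by -0.36. Its bright Large White arrays were those with bright LDHB. PDK4, a kinase that shuts the dehydrogenase complex, differed by 1.43. It read 9.02, 7.22 and 9.21 on Large White replicates 1, 2 and 3 and 9.39, 7.86 and 12.47 on Northeastern Indigenous replicates 1, 2 and 3, so it was high on Northeastern Indigenous replicate 3 alone. PDK3 differed by -0.26 and PDP2, a phosphatase that reopens it, by -0.27. GPT, alanine aminotransferase, differed by 0.57. None of these 5 passed.

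Other lactate dehydrogenase genes were dimmer features. LDHD, the mitochondrial D-lactate dehydrogenase, read 7.90, 9.32 and 8.57 on Large White replicates 1, 2 and 3 and 8.96, 9.58 and 10.12 on Northeastern Indigenous replicates 1, 2 and 3. It differed by 0.96 ± 0.46 (SE; limma adjusted p = 0.293), and a second probe set by 0.82, with overlap between breeds. LDHC, the testis form, lay below the filter, between 1.10 and 6.30.

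NADH made by glycolysis is reoxidised either by lactate dehydrogenase or by shuttles into the mitochondrion. All 8 measured shuttle genes of 9 listed had a positive difference, against 54.7% of named genes, with a median of 1.09. The breeds did not overlap in 5 of them, all higher in Northeastern Indigenous boars (15.9% of named genes), and 0 passed the threshold. GOT1, the cytosolic aspartate aminotransferase, read 9.77, 11.19 and 10.51 on Large White replicates 1, 2 and 3 and 12.13, 12.45 and 12.64 on Northeastern Indigenous replicates 1, 2 and 3. It differed by 1.92 ± 0.38 log2 units (SE; limma adjusted p = 0.224), and by 1.22 against Large White replicate 2 alone.

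The other shuttle genes had values of the same sign. SLC25A12, the mitochondrial aspartate and glutamate exchanger, differed by 2.02, SLC25A11, the oxoglutarate and malate exchanger, by 1.72, MDH2 by 1.27 and GOT2 by 0.90. MDH1, the cytosolic malate dehydrogenase, differed by 0.13, GPD1 by 0.85 and GPD2, of the glycerol phosphate shuttle, by 0.86. With Large White replicate 1 left out GPD1 differed by 0.22 and GPD2 by -0.08, a turn in sign, and another GPD2 probe set differed by 0.04 over all arrays. The median of the list was 0.89 without Large White replicate 1 and 0.42 against Large White replicate 2 alone. Large White replicate 2 is the array of its breed whose LDHA and LDHB lay nearest the Northeastern Indigenous means.

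Glycolysis supplies the pyruvate on which LDHA acts. Of 22 listed genes, 16 passed the filter and 0 passed the threshold, with 10 positive and 6 negative differences and a median of 0.61. PYGM, muscle glycogen phosphorylase, differed by 1.67, PFKM, muscle phosphofructokinase, by 1.65, PGAM2, the muscle phosphoglycerate mutase, by 1.28 and ENO3, the muscle enolase, by 0.91. Without Large White replicate 1 these values were 0.22, 0.35, 0.03 and 0.03, and the median of the list was 0.002. The 6 negative values belonged to HK1, PFKL, PFKP, ALDOC, ENO1 and GAPDH. PGK1 differed by 0.21, PKM by 0.64 and GAPDH by -0.03, although 4 other GAPDH probe sets differed by 0.17 to 1.91. LDHA, at 0.29, lay below the median of the glycolysis genes after quantile normalization, but close to it as deposited (0.67 against 0.68) and with arrays centred on their medians (0.81 against 0.82). Like those of PGAM2 and ENO3, its quantile-normalized difference was 0.03 without that array. With Large White replicates 1 and 3 both left out, the glycolysis median was -0.11.

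Regulators tied to lactate dehydrogenase or oxidative metabolism were mixed. Of 11 listed, 6 were measured and 0 passed. HIF1A, the hypoxia factor for which LDHA is a known target, differed by -1.20 ± 0.43 (SE; limma adjusted p = 0.238), while 2 other probe sets of it differed by 0.67 and 0.32. PPARGC1A, a coactivator of mitochondrial genes that is known to raise LDHB in muscle, read 4.03, 8.80 and 7.09 on Large White replicates 1, 2 and 3 and 9.28, 8.94 and 9.84 on Northeastern Indigenous replicates 1, 2 and 3. PPARGC1A was lowest on the array where LDHB was highest and the sarcomere list dimmest. The part of PPARGC1A in the LDHB values was not tested. TFAM, which maintains mitochondrial DNA, differed by 0.70, with 3 other probe sets at 0.07 to 0.22. EPAS1 differed by 0.25, MYC by -0.11 and FOXO1 by -0.07.

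**Figure D4:**
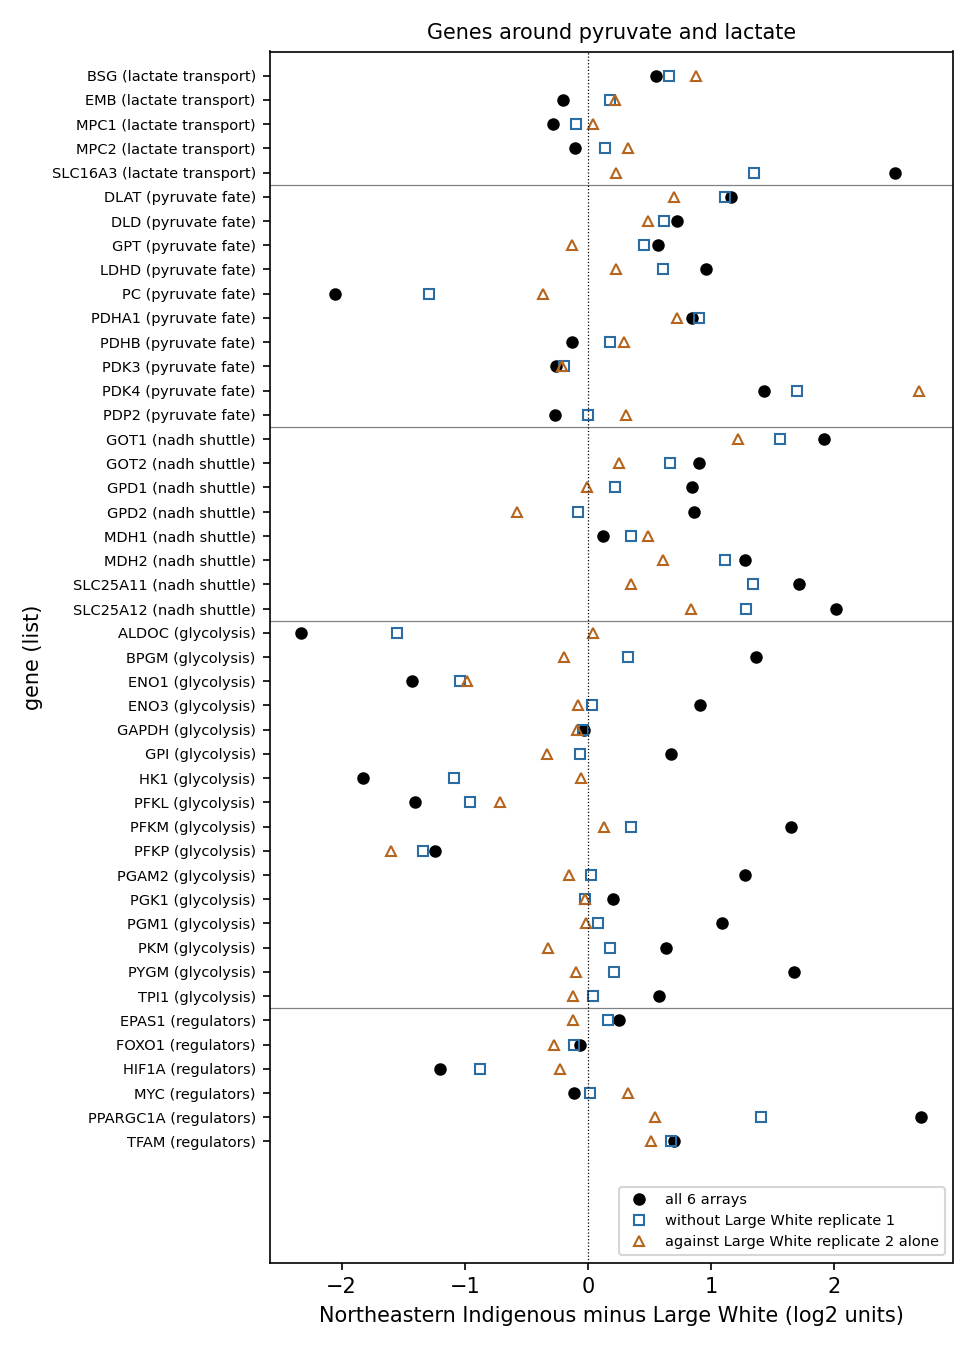
Northeastern Indigenous minus Large White difference in quantile-normalized log2 units for each gene kept from the 5 lists around pyruvate and lactate, with all 6 arrays (black), without Large White replicate 1 (blue squares) and against Large White replicate 2 alone (brown triangles). GOT1 stays at 1.22 or above in all 3, whereas PYGM goes from 1.67 to 0.22 and -0.10.

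Other genes followed the members across the 6 arrays. Likeness was the root mean square difference between log2 profiles, each centred on its own mean, over 5292 named genes. The nearest to LDHA were ATF4, a stress-response transcription factor (0.06 log2 units), AIMP1 (0.08), CCNG1 (0.08), MYL1, a fast-fibre myosin light chain (0.08), and PTS (0.09), against a median of 0.51 over the genes. All 5 were low on Large White replicate 1 and nearly level on the rest. On deposited values 0 of the 5 were among the nearest 5, with ATF4 at place 7 and MYL1 at place 8, and 0 were without Large White replicate 1, so this set rests on that array and on the scaling.

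The nearest to LDHB were C7H14orf119 (0.08), FAIM (0.09), FGF7, a growth factor of connective tissue (0.13), TACC1 (0.14) and SLC25A6, an ADP and ATP carrier of mitochondria (0.15), against a median of 0.83. SLC25A6 read 13.30, 11.72 and 12.75 on Large White replicates 1, 2 and 3 and 11.71, 12.35 and 12.09 on Northeastern Indigenous replicates 1, 2 and 3. It was the nearest of all on deposited values, where the other 4 lay outside the nearest 5. With Large White replicate 1 left out, 3 of the 5 were still among the nearest 5.

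The nearest to the LDHB minus LDHA ratio were DHRS7 (0.12), ALDH1B1, a mitochondrial aldehyde dehydrogenase (0.17), PTGDS, a prostaglandin D synthase (0.20), RGCC (0.20) and YWHAB (0.22), against a median of 1.04. DHRS7 read 12.00, 9.47 and 10.62 on Large White replicates 1, 2 and 3 and 9.33, 9.69 and 9.79 on Northeastern Indigenous replicates 1, 2 and 3. DHRS7 and ALDH1B1 were also among the nearest 5 on deposited values. With Large White replicate 1 left out 1 of the 5 was, DHRS7 at place 5.

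**Figure D5:**
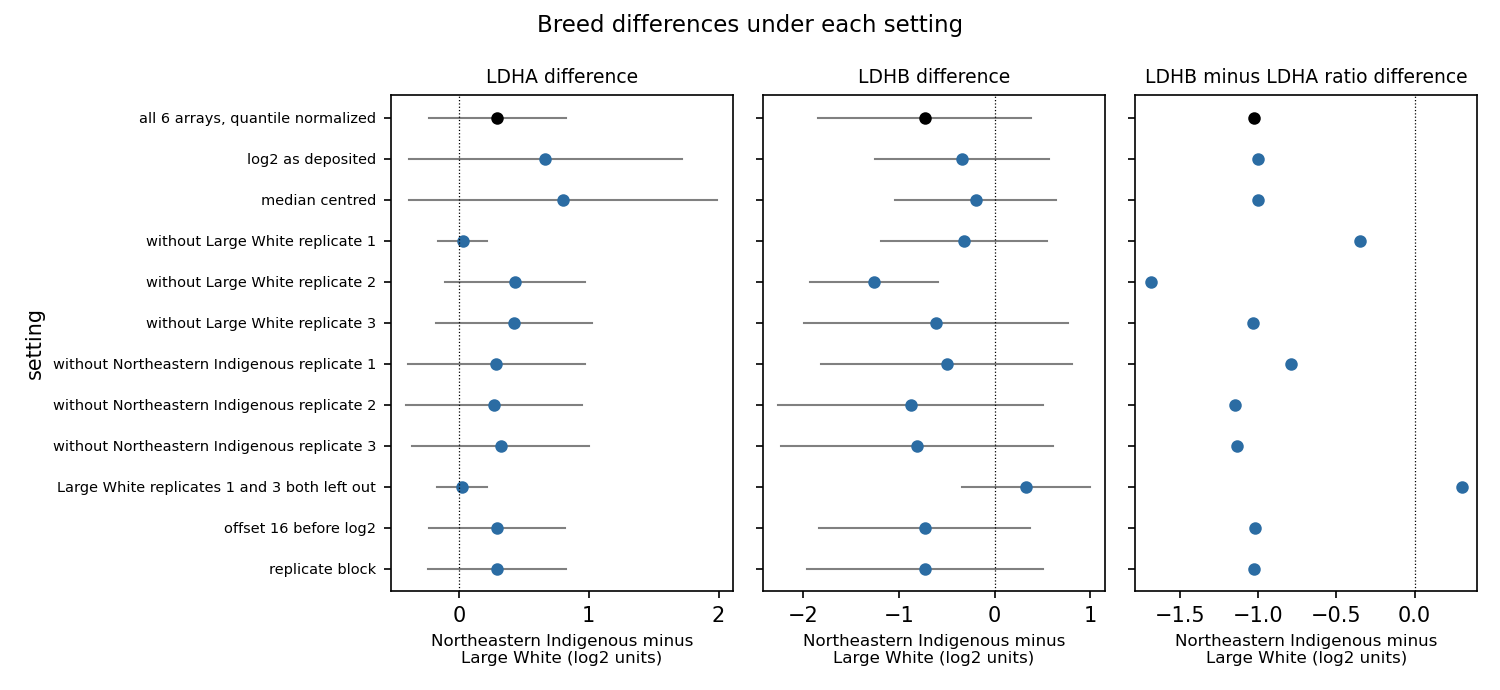
Northeastern Indigenous minus Large White differences in log2 units for LDHA, LDHB and their ratio under each scaling and, on quantile-normalized values, with arrays left out. Points are the differences and grey lines limma's 95% confidence intervals, which the ratio does not have. The LDHB interval leaves 0 on 1 line, without Large White replicate 2, and LDHB and the ratio change sign when Large White replicates 1 and 3 are left out.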

How the data were processed

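Each Affymetrix Porcine Genome Array has 1 linear intensity for every probe set, deposited by the authors. How they computed it is not given in the sources used here. The mean deposited intensity without the lowest and highest 2% was 500.1 or 500.2 on every array. Precision is limited by 6 arrays. The 124 control probe sets were left out. Of the other 23999, 10069 had 1 gene symbol in the platform annotation, 198 several and 13732 none, and 9961 were found in the RefSeq table of assembly Sscrofa11.1.

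Values were taken as log2 and quantile normalized. The lowest 40% of probe sets by mean log2 intensity were dropped, and a gene was represented by its probe set of highest mean. Limma 3.58.1 in R 4.3.3 (lmFit, eBayes with trend) gave two-sided p-values with Benjamini-Hochberg adjustment over 14399 probe sets. The ratio was tested by an exact permutation test. The fit was tested on simulated data in which both breeds had the spread of the Northeastern Indigenous arrays. The wider spread of the Large White arrays was therefore not covered. The members, gene lists and tests were chosen with earlier results of these data known. Named genes were the members, fixed pathway and marker genes, and the 5 genes of nearest profile. Alternatives were other scalings, filters, an offset, variance priors, the replicate block and leaving out arrays.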

Additional observations from a re-analysis of the deposited data

How the results depend on the processing

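LDHA kept its direction and stayed short of the threshold under 15 alternatives, from 0.02 to 0.81. LDHB ranged from -1.26 to -0.32 when 1 array was left out, and the ratio from -1.69 to -0.35. Arrays were left out on quantile-normalized values only, so these ranges do not cover deposited values. As deposited, LDHA on Large White replicate 2 stood 0.23 log2 units above the Northeastern Indigenous mean, the opposite direction to the LDHA difference. With Large White replicates 1 and 3 left out LDHB was 0.33 and the ratio 0.30, both turned in sign. The count of probe sets called was 1 with arrays centred on their medians and 0 to 4421 when 1 array was left out, the highest without Large White replicate 2. Genes called when 1 array was left out were 0 to 5 of 16 for glycolysis, 0 to 1 of 5 for lactate carriers and 0 to 5 of 8 for shuttles. They were 0 to 6 of 10 around pyruvate and 0 to 3 of 6 for regulators. Each highest count came without Large White replicate 2, where 30.7% of all probe sets were called. The lactate carrier median was 0.30 as deposited, 0.44 median centred, -0.32 to 0.18 with 1 array left out, 0.22 without Large White replicates 1 and 3 and 0.23 under the 60th percentile filter. The shuttle median was 0.42 without those 2 arrays. The cause of these changes was not tested. The replicate block gave -1.03 for the ratio (exact sign-flip permutation p = 0.5, two-sided). That test flips the signs of the differences between same-numbered arrays, and 0.25 is the smallest p it allows. The block gave 0.29 for LDHA, -0.73 for LDHB and 0 probe sets called, against 0 without it. Same-numbered arrays had correlations of -0.02, -0.16 and -0.11 between their deviations, against -0.09 to 0.13 for the other pairs of arrays. These values show no pairing by number, but deviations from a mean of 3 arrays cannot exclude it. LDHA lies near the top of the intensity range, where quantile normalization narrows differences.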

Other observations

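Other glycolytic steps with a muscle form and a form of other tissues also varied among the Large White arrays. These pairs were chosen after their values were seen. ENO1, the enolase of most tissues, minus ENO3, the muscle enolase, stood at 4.89, 0.90 and 1.23 on Large White replicates 1, 2 and 3, in quantile-normalized log2 units from the mean of the other breed. PFKP minus PFKM, platelet-type against muscle-type phosphofructokinase, stood at 5.30, 1.73 and 1.64. With PFKL in place of PFKP the pair stood at 6.54, 0.85 and 1.76, and at 0.76 on the highest Northeastern Indigenous array, so Large White replicate 2 was barely above that breed. The LDHB minus LDHA ratio stood at 2.37, -0.30 and 1.00. On Large White replicate 2 the enolase and phosphofructokinase pairs lay above the Northeastern Indigenous range and the LDH pair lay within it, though as deposited the LDH pair stood at -0.56 there, against -0.53 on the lowest Northeastern Indigenous array. ENO1 by itself differed by -1.43 between breeds, and PFKP by -1.24, with limma adjusted p of 0.224 for each. The breeds did not overlap in either gene, as in 12.3% of named genes that were lower in Northeastern Indigenous boars without overlap.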
